A study of Mus musculus with 6 samples.

Results

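Motile cilia genes were followed as a set of 34 genes in mouse teratomas given a miR-124a-3p mimic or a negative control microRNA. The members were taken by gene name on the array, from a list chosen with earlier results of these data known. They comprise 4 regulators of multiciliated cells, 6 dynein arm genes, 2 dynein arm assembly factors, 3 radial spoke genes, 3 central pair genes, 4 genes of the axonemal rulers and the nexin link, 7 genes of tektins and other proteins inside the doublet tubules, and 5 other axonemal or ciliary genes. All 34 names were present, on 62 probes, among 37003 gene names. Of the 34, 33 had a probe well above background and were tested among 22946 genes. These 33 were well above background on all 6 arrays, so no member entered the test through 1 group alone. The exception, Spag6l, is described with the central pair genes.

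Teratomas are growths of pluripotent cells that hold tissues of all germ layers. Here 1000000 mouse embryonic stem cells were placed under the skin of BALB/c nude mice, an immunodeficient host, and the mice were randomised with 3 in each group. Controls 1 to 3 were given a miRNA negative control, and miR-124a 1 to 3 a miR-124a-3p mimic. Both groups received their microRNA in the same carrier, Atelogen QG, by intratumoral injection at 15 µg in 100 µL, repeated at intervals of 3 days to day 28 and starting at a tumour size of at least 100 mm3, about 10 days after implantation. Each tumour was divided into 2 pieces, 1 of which gave the RNA for its array. The stem cell line and the age of the mice are not given in the sources used here.

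Motile cilia beat by the sliding of microtubule doublets, driven by dynein arms that are anchored along each doublet and controlled by radial spokes, a central pair of microtubules and the nexin-dynein link. Cells with many such cilia line the airways, the ventricles of the brain and the oviduct, and sperm tails share much of the same machinery. Mcidas and Ccno act in the multiplication of centrioles, while Foxj1 and the RFX factors switch on the genes of the axoneme.

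Levels are given as log2 signal relative to the 75th percentile of the same array, so that 0 is the level of that percentile, and differences as log2 fold changes of miR-124a over control with their standard error (SE) from limma. Adjusted p-values are Benjamini-Hochberg values over all 22946 genes, with a threshold of 0.05. All 6 arrays were on 1 slide, with the controls in one slide row and the treated tumours in another, and group and slide row cannot be told apart. Between 63.4% and 65.9% of probes were well above background on each array, and 0 spots were saturated. A tumour's signal is an average over its cells, so fewer cells of a type and less RNA per cell cannot be told apart.

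Of the 33 tested motile cilia genes, 1 passed the threshold, Ccdc39, which was higher after miR-124a. Over all genes, 3.23% passed (742 genes), 0.488% as higher (112 genes) and 2.75% as lower (630 genes). The other 32 members had adjusted p-values from 0.0541 to 0.996, and log2 fold changes from -0.41 to 0.52. At an unadjusted p under 0.05 there were 6 members, or 18.2% of those tested, against 27.3% of all genes. Of the 6, 5 were higher and 1 was lower, where 11.4% of all genes were higher and 15.9% lower. The groups did not overlap in 6 members, again 18.2%, against 35.6% of all genes. Of these, 5 (15.2%) were higher after miR-124a, Rfx3, Lrrc6, Rsph9, Ccdc39 and Drc1, where 15% of all genes lay apart in that direction. The remaining member, Dnaic1 (3.03%), was lower, where 20.6% of all genes lay apart. By non-overlap, the members' share was thus near the background for higher genes and below it for lower genes. At the adjusted threshold the single call is 3.03% of the members.

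The direction of the small differences was less even. The fold change was above 0 in 28 of 33 members, or 84.8%, against 49.7% of all genes tested, and its median was 0.18 against -0.00. Members share their tumours, so these 28 are not independent of each other. The median moved to -0.01 without control 1 and ranged from -0.01 to 0.43 when each tumour was left out in turn. The 95% confidence interval of the fold change held 0 in 27 of 33 members. It reached a rise of 1 on the log2 scale in 6 members and a fall of that size in 1, Sntn.

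**Figure D1:**
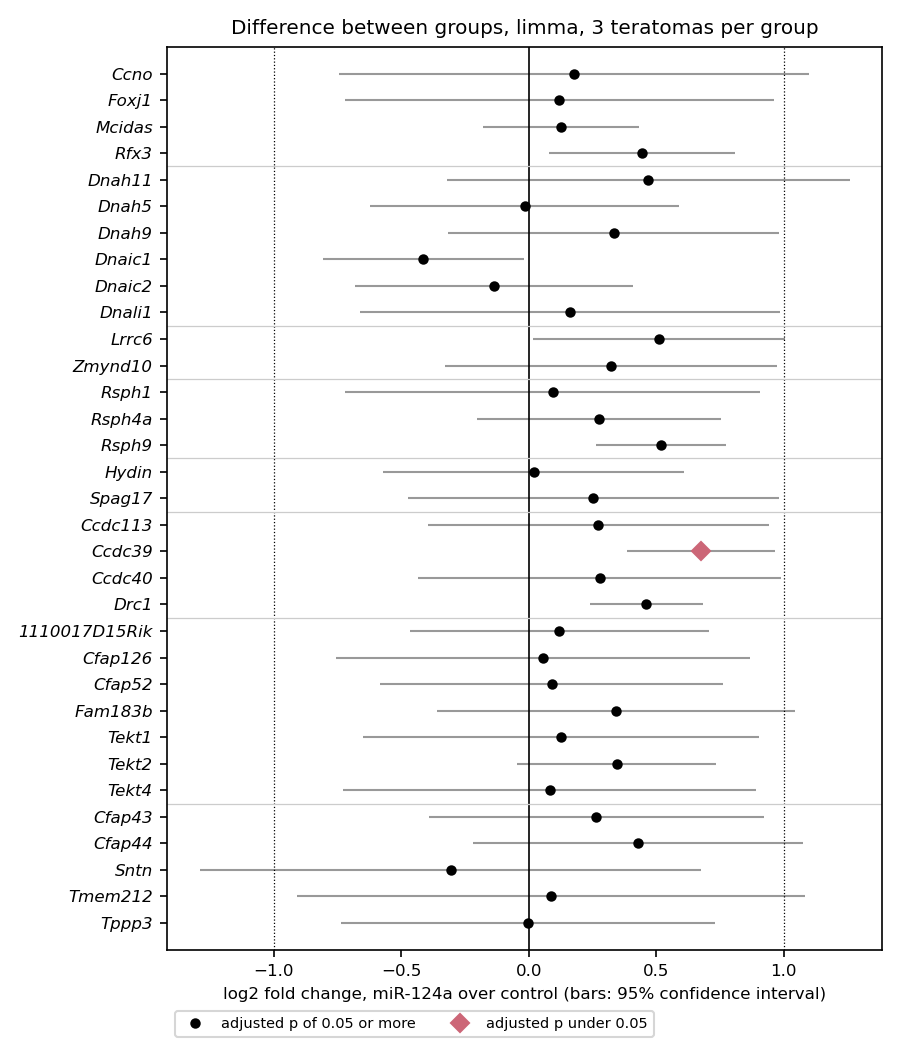
Log2 fold change (x axis) of each of the 33 tested motile cilia genes, miR-124a over control, with points for the limma estimate, bars for its 95% confidence interval and grey lines between roles. Ccdc39 (diamond) is the member past the adjusted threshold at 0.67, and 27 of the 33 intervals hold 0.

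In most of these genes, tumours of the same group lay further apart than the group means. The SD within groups had a median of 0.40 over the members, with a range from 0.07 to 0.62, against 0.17 over all genes tested. It was above the all-gene median in 29 of 33 members. Control 1 was the lowest control in 31 members, or 93.9%, against 32.9% of all genes. Control 2 was the highest control in 29, or 87.9%, against 36.2%. Among miR-124a tumours, number 2 was the lowest in 28 members, or 84.8%, against 34.7%. All 3 of these held together in 24 members, or 72.7%, against 7.67% of all genes. This order was described after the values had been seen, and no test was made of it.

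The size of the steps can be read in the same way. Control 2 exceeded control 1 by a median of 0.76 on the log2 scale, from 0.13 to 1.45, against a median of 0.02 over all genes, and by over 1 in 8 members. In the other group, miR-124a 1 minus miR-124a 2 had a median of 0.64, from -0.11 to 1.23, against 0.01 over all genes. Both differences were above 0.5 in 19 members, or 57.6%, against 1.97% of all genes. Relative to the control mean, the median member stood at -0.41, 0.38 and 0.02 in controls 1 to 3 and at 0.48, -0.15 and 0.31 in miR-124a 1 to 3. The groups overlapped, since miR-124a 2 lay below controls 2 and 3.

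**Figure D2:**
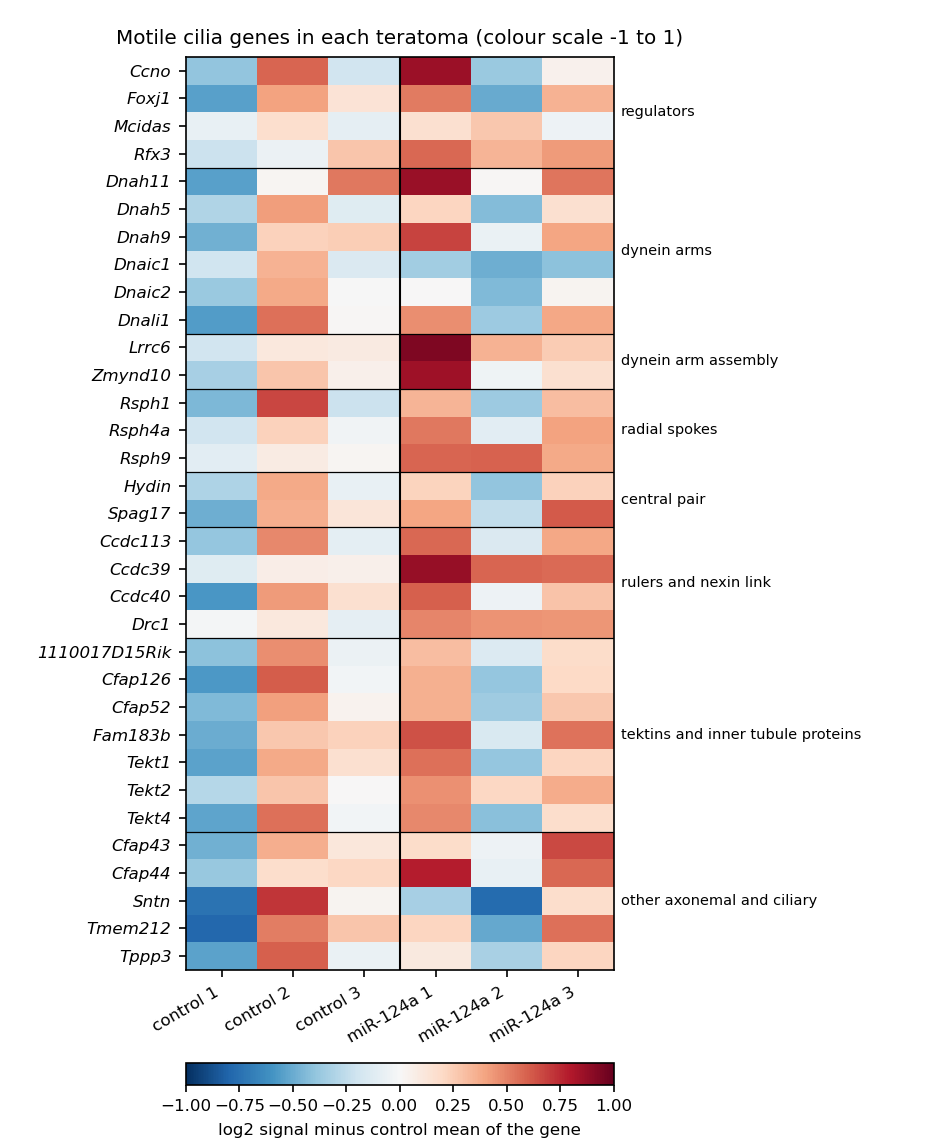
Colour shows log2 signal minus the gene's control mean for each of the 33 tested motile cilia genes (rows, by role) in each of the 6 teratomas (columns). Most rows are low in control 1 and miR-124a 2 and high in control 2 and miR-124a 1; the median row is at -0.41 in control 1 and 0.38 in control 2.

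The 9 members that did not follow the full order were Rfx3, Mcidas, Dnah9, Dnah11, Lrrc6, Rsph9, Ccdc39, Drc1 and Cfap44. In Rfx3, Dnah9, Dnah11 and Cfap44 control 2 was not the highest control. In Mcidas, Lrrc6, Rsph9, Ccdc39 and Drc1 miR-124a 2 was not the lowest miR-124a tumour, and in Mcidas and Drc1 control 1 was also not the lowest control. The 6 members whose groups lay apart had within-group SDs with a median of 0.17, against 0.43 for the other 27. Their difference between controls 2 and 1 had a median of 0.19, with a range from 0.13 to 0.55, against 0.86 for the 27. A small spread within groups is part of what lets groups lie apart, so these figures describe the members and test nothing.

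**Figure D3:**
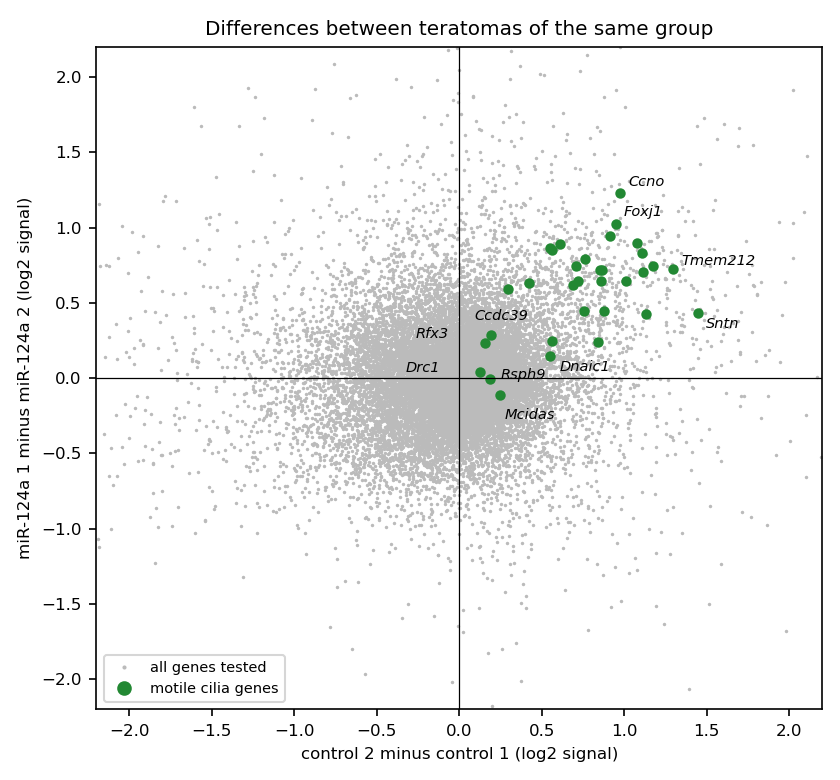
Log2 signal of control 2 minus control 1 (x axis) against miR-124a 1 minus miR-124a 2 (y axis) for all genes tested (grey) and the 33 motile cilia genes (green); both axes are limited to the central range and a few grey genes lie beyond it. The members lie mostly to the upper right, with medians of 0.76 and 0.64, and Drc1, Rsph9, Ccdc39, Rfx3 and Mcidas lie near the centre.

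The regulators were Foxj1, Rfx3, Mcidas and Ccno. None passed the adjusted threshold. Foxj1, the forkhead factor of motile ciliogenesis, stood at -0.08, 0.87 and 0.61 in controls 1 to 3 and at 0.99, -0.04 and 0.81 in miR-124a 1 to 3. Each group therefore held 1 low tumour, control 1 and miR-124a 2, at nearly the same level. The fold change was 0.12 (SE 0.35, n = 3 per group, limma adjusted p = 0.848), against a difference of 0.95 between controls 2 and 1. The estimate was -0.15 when control 1 was left out and -0.08 when miR-124a 1 was.

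Ccno, a cyclin-like protein needed to build the many centrioles of a multiciliated cell, had the same order of tumours as Foxj1 within the miR-124a group. Its values were -1.16, -0.18 and -0.95 in the controls and 0.09, -1.14 and -0.73 in the miR-124a tumours. The step from miR-124a 2 to miR-124a 1, 1.23, was the greatest among the 33 members. The fold change of 0.18 (SE 0.38, limma adjusted p = 0.792) was small beside it, and fell below 0 when control 1 (-0.02) or miR-124a 1 (-0.17) was left out.

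Rfx3, a winged-helix factor that binds X-box sequences in promoters of ciliary genes, differed from the other regulators. It stood at 0.59, 0.74 and 1.08 in the controls and at 1.38, 1.14 and 1.23 in the miR-124a tumours. The groups did not overlap, although control 3 and miR-124a 2 were only narrowly apart. Its fold change was 0.45 (SE 0.15, limma adjusted p = 0.13), and its 3 tested probes gave values from 0.45 to 0.69. RFX factors are also active in cells with a single primary cilium.

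Mcidas, a coactivator at the start of the multiciliated programme, was even across tumours by its brighter probe, at 3.03, 3.27 and 3.02 in the controls and 3.26, 3.37 and 3.06 in the miR-124a tumours. This gave a fold change of 0.13 (SE 0.13, limma adjusted p = 0.551). The probe begins with a simple repeat, which is printed because it limits the reading of this gene.

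Mcidas probe repeat: acacacacacacacacacac

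The repeat takes up 20 of the 60 bases of the probe. The array carried 32 probes with a run of 10 such CA or AC units, and all 32 were well above background on all 6 arrays, against 59.3% of the 56551 other probes. The other Mcidas probe, without the run, was well above background on 0 of 6 arrays. Whether the signal of the brighter probe comes from Mcidas RNA was not tested. The gene is kept among the 33 tested members in the counts and medians given here.

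X-box sequences, which RFX factors bind, and a forkhead form were sought in the promoters of these genes. The promoter window ran from 250 bases before to 50 bases after the RefSeq transcript start on GRCm38.p6, and 29 of the 34 members had an entry; Foxj1, Rsph1, Rsph4a, Tppp3 and Lrrc6 had none. The form sought was GTNNCC followed, after 3 further bases, by GNAAC, read on both strands. It was present in 6 of 29 members, or 20.7% (Ccno, Zmynd10, Hydin, Spag6l, Tekt4 and Cfap44). It was present in 15 of 80 other motile cilia genes, or 18.8%, and in 2.49% of all 27025 genes in the table. The shorter GTTGCCA, which can overlap the longer form, was in 8 of 29 members, or 27.6%, against 5.02% of all genes. TGTTTAC, a forkhead form, was in 2 members, Cfap43 and Sntn, or 6.9%, against 4.05%. The forms were chosen after several had been tried, and a match describes letters only.

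Windows around the longer form are shown for 4 members in which it lies before the start, with the matched letters in capitals. All are printed on the plus strand as given by chromosome coordinates. In Hydin, Ccno and Cfap44 the form is read on the opposite strand, so the capitals show its reverse complement. In Tekt4 it is read on the printed strand. They are at chr8:110266943-110266976 for Hydin, chr13:112987570-112987609 for Ccno, chr16:44394759-44394798 for Cfap44 and chr17:25471417-25471456 for Tekt4, on GRCm38.p6. The matches lie 21, 219, 27 and 160 bases before the transcript start, in that order.
Hydin: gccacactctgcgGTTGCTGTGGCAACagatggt
Ccno: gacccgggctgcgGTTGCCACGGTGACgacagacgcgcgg
Cfap44: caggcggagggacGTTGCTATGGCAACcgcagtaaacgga
Tekt4: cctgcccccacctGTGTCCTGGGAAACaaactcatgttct

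The 4 genes did not share a fold change: Hydin was at 0.02, Ccno at 0.18, Cfap44 at 0.43 and Tekt4 at 0.08, and none passed the threshold. In Hydin, Ccno and Tekt4, all 3 features of the within-group order were present, as they were in 24 of the 33 members, or 72.7%.

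Among the 6 dynein arm genes, the median fold change was 0.07 and none passed the threshold. Dnaic1, an intermediate chain of the outer arm, had the lowest fold change of the 33 members. It stood at -0.49, 0.06 and -0.43 in the controls and at -0.63, -0.78 and -0.70 in the miR-124a tumours, so every miR-124a tumour was below every control. Its fold change was -0.41 (SE 0.16, limma adjusted p = 0.167), and -0.24 without control 2. Of the 6 dynein arm genes, 3 were below 0. Its partner chain Dnaic2 was at -1.63, -0.87 and -1.26 against -1.25, -1.69 and -1.23, with overlapping groups and a fold change of -0.14 (SE 0.23, limma adjusted p = 0.721).

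The outer arm heavy chains gave different estimates. Dnah5 stood at -1.81, -1.09 and -1.63 in the controls and at -1.29, -1.94 and -1.35 in the miR-124a tumours, a fold change of -0.02 (SE 0.25, limma adjusted p = 0.971). Dnah9 had 0.33 (SE 0.27, limma adjusted p = 0.455) by its brightest probe, but its other tested probes gave 1.01 and 1.39, the latter well above background on 1 of 3 control arrays. Dnah11 reached 0.47 (SE 0.33, limma adjusted p = 0.387), with control 1 lowest at -3.06 and miR-124a 1 highest at -1.66. The inner arm light chain Dnali1 went from -1.08 in control 1 to 0.03 in control 2, and its fold change was 0.16 (SE 0.34, limma adjusted p = 0.785).

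The 2 assembly factors, which act in the cytoplasm to preassemble dynein arms, had a median fold change of 0.42. Lrrc6 was dim, at -5.27, -4.97 and -4.98 in the controls and -4.14, -4.73 and -4.82 in the miR-124a tumours. The groups lay apart, by a fold change of 0.51 (SE 0.20, limma adjusted p = 0.172), with miR-124a 1 well above the other miR-124a tumours. Without miR-124a 1 the estimate was 0.30, and with normexp background correction and quantile scaling it was 0.06. Zmynd10, its binding partner, stood at -2.14, -1.53 and -1.76 against -0.96, -1.85 and -1.65. Here too miR-124a 1 was the highest tumour, but miR-124a 2 and miR-124a 3 lay within the range of the controls, and the fold change was 0.32 (SE 0.27, limma adjusted p = 0.468).

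Rsph9, a radial spoke head protein, was even within each group. Its values were 1.69, 1.88 and 1.82 in the controls and 2.38, 2.39 and 2.17 in the miR-124a tumours. The groups differed by a fold change of 0.52 (SE 0.11, limma adjusted p = 0.0568), with a 95% confidence interval from 0.26 to 0.77. It missed the threshold in the reported fit and passed it in 4 of 15 alternatives. A further probe, at -1.46, -1.32 and -1.39 against -0.64, -0.50 and -0.77, gave 0.75, also with groups apart. The probe of the reported value lies at chr17:46266279-46266338 on mm9.

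The other spoke head genes behaved differently. Rsph1 stood at -0.94, 0.17 and -0.71 in the controls and at -0.16, -0.86 and -0.18 in the miR-124a tumours, with a fold change of 0.09 (SE 0.34, limma adjusted p = 0.877). Rsph4a gave 0.28 (SE 0.20, limma adjusted p = 0.402), with controls from -2.85 to -2.43 and miR-124a tumours from -2.76 to -2.13. In both genes control 1 and miR-124a 2 were the low tumours of their groups, which was not so for the miR-124a tumours in Rsph9. The difference between Rsph9 and these genes was not tested.

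Of the central pair genes, Hydin and Spag17 were tested. Hydin, a large protein of a central pair projection, stood at -3.01, -2.32 and -2.78 against -2.48, -3.10 and -2.48, a fold change of 0.02 (SE 0.24, limma adjusted p = 0.966). Spag17 was at -4.56, -3.70 and -3.95 in the controls and at -3.68, -4.32 and -3.46 in the miR-124a tumours, a fold change of 0.25 (SE 0.30, limma adjusted p = 0.613). The estimate for Spag17 was 0.06 with normexp and quantile scaling and 0.46 with array weights. It was 0.01 without control 1, 0.44 without control 2, 0.50 without miR-124a 2 and 0.07 without miR-124a 3. The groups overlapped in both.

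The 2 probes that carry the name Spag6l were not well above background on any array. Their positions on mm9, chr2:18654739-18654798 and chr2:18620555-18620614, differ from that of a probe named Spag6 in the files whose accession belongs to Spag6l. The latter, at chr16:16753135-16753194, was well above background on all 6 arrays. It stood at -0.73, -0.07 and -0.52 in the controls and at 0.08, -0.17 and -0.23 in the miR-124a tumours, a fold change of 0.33. It is outside the rule by name and is counted nowhere among the members.

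Ccdc39 forms, with Ccdc40, the molecular ruler that sets the repeat length of the axoneme and places the inner arms and the nexin link. It rose after miR-124a, from -2.37, -2.18 and -2.19 in the controls to -1.38, -1.66 and -1.68 in the miR-124a tumours. Every miR-124a tumour was above every control, and the step between groups exceeded the steps within them. The fold change was 0.67 (SE 0.12, n = 3 per group, limma adjusted p = 0.0443), or 1.6-fold, with a 95% confidence interval from 0.38 to 0.97. A further probe, at -3.15, -3.68 and -3.05 against -2.28, -2.79 and -2.58, gave 0.74. The first probe lies at chr3:33711456-33711515 on mm9.

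The call rests on all 6 tumours. Leaving out any tumour moved the adjusted p of Ccdc39 to between 0.0738 and 0.139. It was 0.0948 without the filter on dim probes and 0.0561 with the mean of the probes of each gene. The value stayed above 0 under all 15 alternatives, between 0.36 (normexp with quantile scaling) and 0.73. Ccdc39 passed the threshold in 6 of the 15. Its greatest limma adjusted p, 0.157, came with the replicate number as a block.

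Ccdc40, the partner of Ccdc39 in the ruler, did not share its evenness. It stood at -2.15, -1.14 and -1.41 in the controls and at -0.97, -1.61 and -1.28 in the miR-124a tumours, a fold change of 0.28 (SE 0.29, limma adjusted p = 0.57). Drc1, a subunit of the nexin-dynein regulatory complex, was the member with the smallest spread. Its values were 1.82, 1.94 and 1.75 against 2.33, 2.29 and 2.28, a fold change of 0.46 (SE 0.09, limma adjusted p = 0.0541). Its groups did not overlap, and the 95% confidence interval ran from 0.24 to 0.68. Ccdc113, a further axonemal coiled-coil protein, was at -0.71, 0.15 and -0.43 against 0.24, -0.47 and 0.05, a fold change of 0.27 (SE 0.28, limma adjusted p = 0.554).

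The tektins are filament proteins inside the doublet tubules, where Cfap52, Cfap126 and related small proteins also lie. The median fold change of these 7 genes was 0.12, none passed the threshold, and all 7 had the full within-group order. Tekt2 had the smallest p of them, with -1.77, -1.21 and -1.48 in the controls, -1.03, -1.28 and -1.12 in the miR-124a tumours and a fold change of 0.35 (SE 0.16, limma adjusted p = 0.222). Tekt1 stood at 0.29, 1.20 and 0.98 against 1.37, 0.43 and 1.04, and Tekt4 at -0.56, 0.52 and -0.07 against 0.45, -0.45 and 0.14. In both, the highest and lowest miR-124a tumours were about as far apart as the highest and lowest controls. Cfap52, Cfap126, Fam183b and 1110017D15Rik had fold changes from 0.06 to 0.34.

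The 5 other members included Sntn and Tmem212, which had the widest steps between controls 1 and 2. Sntn, the apical protein sentan of the cilium tip, stood at -4.45, -3.00 and -3.69 in the controls and at -4.05, -4.48 and -3.53 in the miR-124a tumours. Controls 2 and 1 differed by 1.45 and the fold change was -0.31 (SE 0.41, limma adjusted p = 0.653). Tmem212, a membrane protein found in multiciliated cells, had -3.31, -2.01 and -2.24 against -2.30, -3.03 and -1.97, a fold change of 0.09 (SE 0.41, limma adjusted p = 0.909). Tppp3, a tubulin-binding protein abundant in such cells, stood at 2.96, 4.09 and 3.43 against 3.60, 3.17 and 3.71, a fold change of -0.00 (SE 0.30, limma adjusted p = 0.996).

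Cfap43 and Cfap44, partners that tether the inner arms, were measured by several probes. Cfap44 stood at -2.21, -1.66 and -1.63 in the controls and at -1.05, -1.91 and -1.26 in the miR-124a tumours, a fold change of 0.43 (SE 0.27, limma adjusted p = 0.339). Its 5 probes gave 0.35 to 0.58. Cfap43 was at -0.24, 0.61 and 0.35 against 0.43, 0.19 and 0.90, a fold change of 0.26 (SE 0.27, limma adjusted p = 0.558), and its 3 probes gave 0.26 to 0.57. Across the members, 11 had more than 1 tested probe, and within each of them the probes gave fold changes of the same sign. The probes of a gene differed by at most 0.30, except in Dnah9. The highest of its 3 values, 1.39, came from a probe that met the filter through the miR-124a group alone, and leaves the difference between probes uncertain; the other 2 gave 0.33 and 1.01.

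**Figure D4:**
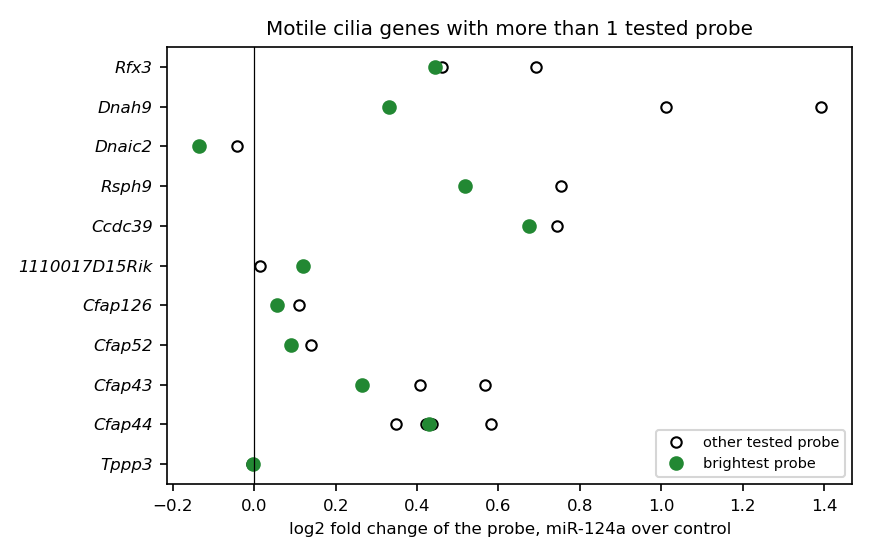
Log2 fold change of each tested probe (x axis), miR-124a over control, for the 11 motile cilia genes with more than 1 tested probe, with the brightest probe filled and the others open. Probes of a gene lie on the same side of 0, and those of Dnah9 lie at 0.33, 1.01 and 1.39, the last from a probe well above background on 1 of 3 control arrays.

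Further genes of motile cilia were counted from a list of 101, of which 86 were tested. With limma, 0 passed the threshold, and 9 were higher and 2 lower at an unadjusted p under 0.05, where 11.4% and 15.9% of all genes were, so the higher share was near the background. One of the 9, Cfap221, met the filter through the miR-124a group alone. The median fold change of the 86 was 0.19, with 67 of 86 above 0, against 49.7% of all genes. The full within-group order was present in 54 of 86, against 7.67% of all genes. The medians per tumour were -0.32, 0.25 and 0.04 in the controls and 0.39, -0.09 and 0.26 in the miR-124a tumours, an order like that of the members. Dnah7a, an inner arm heavy chain, had the smallest p, with a fold change of 0.64 (SE 0.13, limma adjusted p = 0.059).

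The list of multiciliated cell regulators and centriole amplification genes held 19 genes, all tested. With limma, 0 passed. At an unadjusted p under 0.05, 2 were higher and 1 lower, where 11.4% and 15.9% of all genes were. Their median fold change was 0.13. The full order was present in 5 of 19, Gmnc, Deup1, Myb, Ccdc78 and Foxn4, against 7.67% of all genes. It was absent in the other genes of the list, among them Trp73, Cdc20b and Rfx2. Deup1, a scaffold of the deuterosomes on which centrioles multiply, stood at -0.66, 0.26 and -0.24 against 0.76, -0.51 and -0.17. Ccdc78, another deuterosome protein, stood at -2.71, -1.42 and -2.16 against -1.83, -2.66 and -1.64. E2f4, a cell cycle factor with many other roles, had the smallest p and a fold change of -0.29 (limma adjusted p = 0.143).

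Genes of intraflagellar transport and the primary cilium, which most cell types express, gave another pattern. Of 58, all tested, 0 passed with limma, against 3.23% of all genes. At an unadjusted p under 0.05, 15 were higher and 0 lower, where 11.4% and 15.9% of all genes were. The fold change was above 0 in 52 of 58, against 49.7% of all genes, with a median of 0.19. The full within-group order was present in 4 of 58, near the 7.67% of all genes. The median per tumour was -0.10, 0.00 and 0.08 in the controls and 0.27, 0.14 and 0.19 in the miR-124a tumours. Ift22, a transport complex subunit, had the smallest p, with a fold change of 0.43 (limma adjusted p = 0.055). The median fold change was thus near that of the members, but control 1 and control 2 differed by a median of 0.08, against 0.76 in the members.

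**Figure D5:**
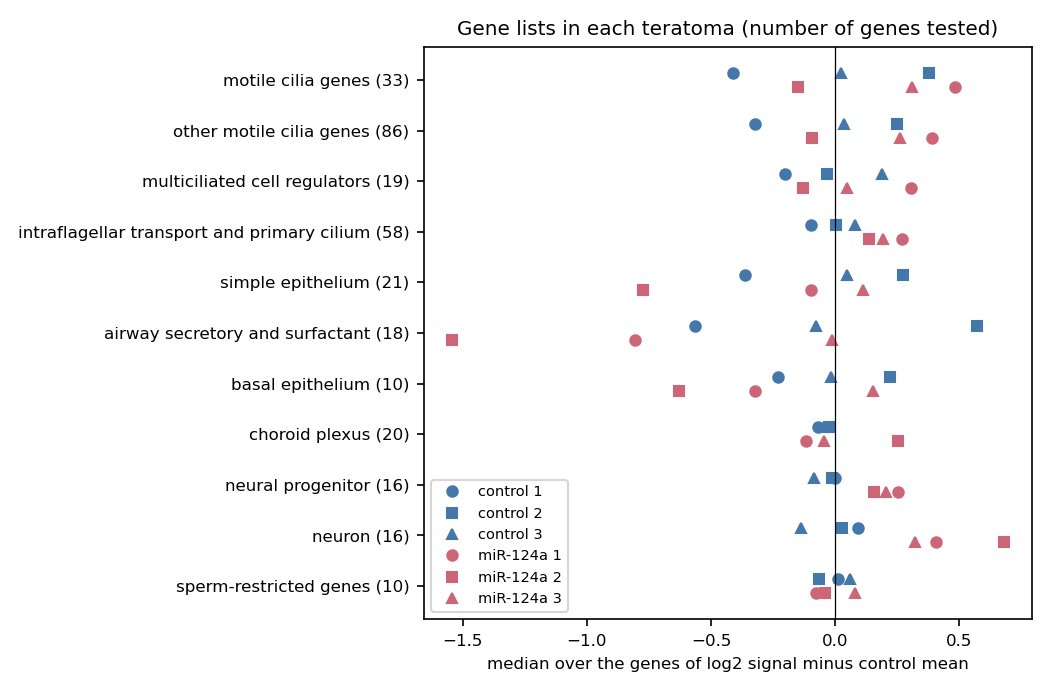
Median over the tested genes of each list of log2 signal minus the gene's control mean (x axis), one point per teratoma, with the number of genes tested in brackets. Motile cilia genes run from -0.41 in control 1 to 0.48 in miR-124a 1 with the groups overlapping, while intraflagellar transport genes run from -0.10 to 0.27 with the groups apart.

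Markers of epithelia moved with the motile cilia genes in part. Of 21 simple epithelium genes, 15 had the full order, which 7.67% of all genes had. The medians of the 21 were -0.36, 0.27 and 0.05 in the controls and -0.10, -0.77 and 0.11 in the miR-124a tumours. Epcam, an epithelial adhesion protein, stood at -3.00, -2.54 and -2.75 against -2.76, -3.59 and -2.76 (fold change -0.27, limma adjusted p = 0.52). With limma, 0 of the 21 passed and 0 had an unadjusted p under 0.05, against 3.23% and 27.3% of all genes. The fold change was above 0 in 1 of 21, against 49.7% of all genes. Krt8, a keratin of simple epithelia, had the smallest p (-0.42, limma adjusted p = 0.239). Control 1 and miR-124a 2 were thus low in both lists, but miR-124a 1 was below controls 2 and 3 for epithelium and above them for motile cilia. Airway secretory and surfactant genes had the order in 11 of 18, with medians of -0.56, 0.57 and -0.08 against -0.81, -1.54 and -0.01. Their median fold change was -0.75, with 1 of 18 above 0. With limma 0 passed. At an unadjusted p under 0.05, 0 were higher and 3 lower, where 11.4% and 15.9% of all genes were. The smallest p was that of Tff2, a secreted trefoil peptide, with a fold change of -1.76 (SE 0.48, limma adjusted p = 0.092). Scgb1a1, the club cell secretory protein, stood at 0.73, -0.50 and -0.44 against -3.36, -2.64 and -0.11 (fold change -1.97, SE 0.85, limma adjusted p = 0.197), and did not follow the order, since control 1 was its highest control. Basal epithelium genes had the order in 5 of 10, with a median fold change of -0.36 and 3 of 10 above 0. With limma 0 of the 10 passed. At an unadjusted p under 0.05, 1 was higher and 1 lower, where 11.4% and 15.9% of all genes were. Dlk2 had the smallest p (0.46, limma adjusted p = 0.131), and Trp63, the factor that defines basal cells, was at 0.13 (limma adjusted p = 0.44). Both are among the 3 genes above 0. The part of these cells in the result for motile cilia genes was not tested.

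Other sources of ciliary RNA were followed by their own lists. Choroid plexus genes had the order in 1 of 20, near the 7.67% of all genes. With limma 1 of the 20 passed, Sostdc1, as lower, where 2.75% of all genes did. The medians per tumour were -0.07, -0.02 and -0.05 against -0.12, 0.25 and -0.04. Ttr, the main secreted product of that tissue, was highest in miR-124a 2, at 5.08, against 3.49 and 3.44 in miR-124a 1 and 3, and its fold change was 0.14 (SE 0.44, limma adjusted p = 0.85). The part of this tissue in the result for motile cilia genes was not tested. Of 28 sperm-restricted genes, 18 were not tested because no probe met the filter, among them Odf1, Tnp1, Tnp2, Akap4 and Acrv1. Their 10 tested members had summed signals, in units of the 75th percentile, from 3.1 to 3.2 in the controls and 3.1 to 3.4 in the miR-124a tumours. With limma 1 of the 10 passed, Prm1, as lower. Of 5 oviduct genes 3 were tested, and 0 passed with limma. At an unadjusted p under 0.05, 1 was higher and 1 lower, where 11.4% and 15.9% of all genes were. Ovgp1, an oviduct glycoprotein, had the smallest p (0.59, limma adjusted p = 0.159). Neural progenitor genes had tumour medians of 0.00, -0.01 and -0.08 against 0.25, 0.16 and 0.20. The fold change was above 0 in 13 of 16, against 49.7% of all genes, with a median of 0.21. With limma 0 of the 16 passed. At an unadjusted p under 0.05, 3 were higher and 1 lower, where 11.4% and 15.9% of all genes were. The 1 lower was Nes, an intermediate filament of progenitors, which had the smallest p (-0.61, limma adjusted p = 0.07). In skeletal muscle, by contrast, 15 of 15 tested genes passed as lower, against 2.75% of all genes. The smallest p-values were those of Myog, Myod1 and Ryr1, with fold changes of -1.65, -1.99 and -1.69 (limma adjusted p = 0.017, 0.021 and 0.021).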

How the data were processed

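Gene expression was measured on 1-colour Agilent arrays, 1 per tumour, in 3 control and 3 miR-124a tumours. Spot intensity in the deposited scanner files had been background-corrected, per the file headers, with the scanner software (Agilent Feature Extraction, version 11.5.1.1). A table of log2 values from the authors was also deposited. Its values differed from the log2 intensity by a constant per array (SD of the difference 0.0029). Its medians were -2.98, -3.07 and -2.98 in the control columns and -2.97, -2.99 and -2.98 in the miR-124a columns. The table served as an alternative only, and the sources used here do not name its tool.

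Of 62976 spots per array, 59305 were not controls. The log2 intensity minus its 75th percentile over these spots was averaged over the spots of a probe, giving 56605 probes. Outlier flags removed 22 probes, and a probe was tested if well above background on all 3 arrays of a group (35719 probes). The brightest tested probe stood for each gene, leaving 22946 genes, of which 8228 had more than 1 tested probe. Names came from accessions through RefSeq for 32979 probes, from symbols for 10223, from older symbols for 520, and from the files for 12861. The groups were compared with limma 3.58.1 (lmFit and eBayes) in R 4.3.3, and the code was tested on simulated data. Figures used matplotlib 3.10.9 in Python 3.11.15. The number of arrays limits the precision.

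The members, gene lists and tests were chosen with earlier results of these data known. Named in full were members past the threshold, the member with the smallest p in each role and the 4 regulators; other members were accounted for by values or ranges. From each other list up to 3 genes past the threshold, or the gene with the smallest p, and defining marker genes were named. Deup1, Ccdc78 and the members of the within-group order were singled out after their values were seen. Alternatives covered scaling, background correction, the filter, the choice of probe, the variance model, array weights, a replicate block and leaving out each tumour. The 2 probes named Spag6l and the mature sequence of miR-124a were not used here.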

Additional observations from a re-analysis of the deposited data

How the results depend on the processing

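The count of 1 called member became 3 with quantile scaling, with normexp background correction and quantile scaling, and with a trended and robust variance. In each case these were Ccdc39, Drc1 and Rsph9. Of all genes, 3.69%, 6.72% and 7.51% passed in these fits, in that order, against 3.23% in the reported fit. The member count was 2 with array weights (Ccdc39 and Drc1), where 3.19% of all genes passed. It was 0 without the filter on dim probes, where 0.259% of all genes passed. Leaving out each tumour in turn gave 0 members in all 6 fits, with 0 to 375 genes passing over the whole array. The mean of a gene's probes gave 1, but Rsph9 in place of Ccdc39. Genes called in the list of other motile cilia genes numbered 0, and 1 with normexp or with the trended variance. The remaining lists were not counted under the alternatives. Deviations from the group mean showed no pairing by replicate number. Those of same-numbered tumours correlated at -0.16, -0.04 and -0.06, and 0 of 6 tumours correlated best with their own number. With 3 tumours per group, these values cannot tell whether the numbers stand for a pairing in handling. A fit with the replicate number as a block called 0 members and 0 genes in all, against 742 without it. With a tumour left out, Foxj1 ran from -0.15 to 0.43 and Ccno from -0.17 to 0.47. Below 0 were Foxj1 at -0.15 and Ccno at -0.02 without control 1, and Foxj1 at -0.08 and Ccno at -0.17 without miR-124a 1. Over the 15 alternatives Mcidas ran from 0.05 to 0.21, Tekt2 from 0.20 to 0.48 and Cfap44 from 0.24 to 0.68, with 0 calls. The median of the members was 0.37 with array weights, 0.15 to 0.21 under the scalings, and -0.01 to 0.43 with a tumour left out. The cause of these changes was not tested. With 3 tumours per group and within-group SDs near 0.40 in the members, changes under 2-fold are poorly resolved: the widest interval, that of Tmem212, ran from -0.91 to 1.08.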

Other observations

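Among the lists of other cells, Prm1 and Sostdc1 passed the threshold outside skeletal muscle, both as lower after miR-124a. They were 1 of 10 tested sperm-restricted genes and 1 of 20 choroid plexus genes, where 2.75% of all genes passed as lower. Prm1, a protamine that packs sperm DNA, stood at -3.01, -3.11 and -2.99 in the controls and at -3.54, -3.61 and -3.52 in the miR-124a tumours, a fold change of -0.52 (SE 0.09, limma adjusted p = 0.039). Sostdc1, a secreted inhibitor of BMP and WNT signalling that was listed under choroid plexus, had a fold change of -1.53 (SE 0.27, limma adjusted p = 0.041). Neuron genes had a median fold change of 0.49. At an unadjusted limma p under 0.05, 10 of 16 were higher, against 11.4% of all genes, and 0 passed after adjustment. Their medians per tumour were 0.09, 0.03 and -0.14 in the controls and 0.40, 0.68 and 0.32 in the miR-124a tumours, so miR-124a 2, low in motile cilia genes, was the highest for neurons. Tubb3, a neuronal tubulin, had a fold change of 0.57 (limma adjusted p = 0.053).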
